A study of Mus musculus with 8 samples.

Results

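The kinetochore is the protein assembly that ties each chromosome to the spindle, and the spindle checkpoint holds cells in mitosis until every kinetochore is attached. The genes described here are all features whose symbol is Cenp followed by lower-case letters (20 genes) and 22 named genes of the kinetochore, the checkpoint and the chromosomal passenger complex, in all 42 of the 31053 genes in the files. The rule uses gene symbols alone. They were followed in SN4741, a mouse neural precursor line from embryonic substantia nigra that is reported to be clonal but whose chromosome complement varies from cell to cell, and which carries a temperature-sensitive SV40 T antigen (tsA58) driven by a tyrosine hydroxylase promoter. Single-cell libraries were made from 4 replicates kept at the permissive temperature (37 °C, 10% serum) and from 4 replicates moved 24 hours after passage to the non-permissive temperature (39 °C) in 0.5% serum and harvested 48 hours later. Both groups carry the transgene. Temperature and serum changed together, and the time from passage to harvest is not given for the 37 °C cultures. The effects of temperature, serum and any difference in that time cannot be told apart.

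In the order in which the kinetochore is built, the histone variant CENP-A marks the centromere and recruits a constitutive centromere-associated network (CCAN) of CENP proteins. On this base sits the KMN network, formed by Knl1, the Mis12 complex and the NDC80 complex, which grips microtubules with the help of the Ska complex. Checkpoint kinases and adaptors (Ttk, Bub1, Bub1b, Bub3, Mad2l1) signal from unattached kinetochores, the corona proteins Cenpe and Cenpf extend outwards, and the chromosomal passenger complex (Aurkb, Incenp, Birc5, Cdca8) corrects wrong attachments. Many of these genes are known to be transcribed late in the cell cycle, and a short promoter element near the gene start, the cell cycle genes homology region (CHR), is a known feature of such genes.

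Of the 42 genes, 37 had a promoter window in the RefSeq table (build GRCm38.p6, 250 bases before to 50 after the gene start, first window per gene). A CHR match was read as TTTGAA or TTCGAA on either strand, so that TTCAAA marks a match on the opposite strand, and TTCGAA reads the same on both. Such a match lay in 16 of these 37 windows (43.2%), against 19.4% of all 27025 windows, and in 13 (35.1%) it began within 50 bases of the start, against 5.29% of all, a limit chosen after the positions were seen. The box CCAAT, read on both strands, lay in 23 (62.2%) against 37.9% of all windows. The sites below belong to 6 genes that fell by more than 2 on the log2 scale at 39 °C, with Spc25 and Bub3, which fell less, shown for comparison (Knl1 and Ndc80 were chosen after their values were seen), and the capitals mark the CHR match.
Cenpf: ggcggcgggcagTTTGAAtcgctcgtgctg
Bub1: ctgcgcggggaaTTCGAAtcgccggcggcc
Knl1: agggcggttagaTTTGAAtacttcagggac
Ndc80: gaaactttaaaaTTCAAAccgccttgggtt
Ttk: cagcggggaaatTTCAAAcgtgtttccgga
Cenpa: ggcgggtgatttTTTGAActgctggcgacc
Spc25: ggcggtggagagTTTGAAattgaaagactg
Bub3: gagccgttggcgTTCAAAatcagccaatga
These stretches lie, in the same order, at chr1:189688067-189688096 on the minus strand, chr2:127831828-127831857 on the minus strand, chr2:119047138-119047167 on the plus strand, chr17:71526811-71526840 on the minus strand, chr9:83834684-83834713 on the plus strand, chr5:30666890-30666919 on the plus strand, chr2:69206172-69206201 on the minus strand and chr7:131560315-131560344 on the plus strand. The match begins 43 bases before the start in Bub3 and 3, 15, 32, 30, 8, 17 and 25 bases after it in Cenpf, Bub1, Knl1, Ndc80, Ttk, Cenpa and Spc25.

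After filtering, 18351 of 19125 cells were kept, with 985 to 3494 cells and 17166686 to 29633818 unique molecular identifiers (UMIs, counted transcript molecules) per library. The median UMIs per cell ranged from 9839 to 15413 at 37 °C and from 6676 to 16665 at 39 °C, and the median mitochondrial share from 7.55 to 7.89% and from 8.04 to 8.85%. Of 10 neural precursor markers, 4 (Vim, Nes, Sox2, Hes1) reached 1 CPM (counts per 1e+06 counts of the library), Hes5 was at 0, and Sox1, Pax6, Msi1, Fabp7 and Prom1 were at most 0.156 CPM in any library. From 37 °C to 39 °C, Nes ranged from 430 to 538 and from 105 to 117 CPM, Sox2 from 52.0 to 57.2 and from 72.6 to 80.7 CPM, and Hes1 from 96.0 to 148 and from 163 to 285 CPM, and the list summed to 5748 to 6109 and 5367 to 6088 CPM. Most of that sum was Vim alone, at 5145 to 5445 CPM at 37 °C and 5002 to 5617 CPM at 39 °C. The summed level of 7 mesenchymal markers, with collagen genes foremost, was 2070 to 2131 CPM at 37 °C and 865 to 890.4 CPM at 39 °C, that of 7 neuronal markers 168 to 198 and 83.2 to 102.5 CPM. Of the neuronal markers, 4 reached 1 CPM, and most of their sum was Stmn2 and Map2. Stmn2 ranged from 97.95 to 125.6 and from 41.0 to 59.8 CPM, Map2 from 48.4 to 52.5 and from 28.0 to 31.9 CPM. Tubb3 was lower at 39 °C, while Syn1 ranged from 3.53 to 4.21 and from 3.90 to 4.93 CPM. Rbfox3, Snap25 and Syt1 were at most 0.212 CPM in any library. The summed levels of 4 astrocyte and 4 oligodendrocyte markers were 14.3 to 21.0 and 2.97 to 3.52 CPM at 37 °C and 14.7 to 16.8 and 4.70 to 5.45 CPM at 39 °C, with Olig2 and Mog at 0. Blood and endothelial markers summed to at most 2.27 CPM, with Cdh5 at 0. The part of these differences in the results was not tested.

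The 42 genes together took up 0.264 to 0.290% of all UMIs in the 37 °C libraries and 0.0930 to 0.0978% in the 39 °C libraries. Levels were then compared per gene on UMIs summed per library, with edgeR's quasi-likelihood test over the 15810 genes that averaged 1 count or more across libraries, and fold changes are given on the log2 scale, 39 °C relative to 37 °C, with their standard error (SE). A gene rose or fell at an adjusted p under 0.05, and was called when the adjusted p was under 0.01 and the change over 1.5 in size. In all cells, 27 of the 42 genes were called lower, where 3.62% of all tested genes were, and 0 were called higher by edgeR (1 at an unadjusted p under 0.05) or by DESeq2, which called 29 lower. In all, 41 fell, against 30.5% of all genes, and Cenpt alone rose, against 31.5% of all genes. The median change was -1.74 over the 42 genes and 0.02 over all tested genes. For the 41 genes that fell, each 39 °C library was below each 37 °C library, which held for 28.0% of all genes. Fewer cells with a transcript and fewer transcripts per cell cannot be told apart in these sums.

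**Figure D1:**
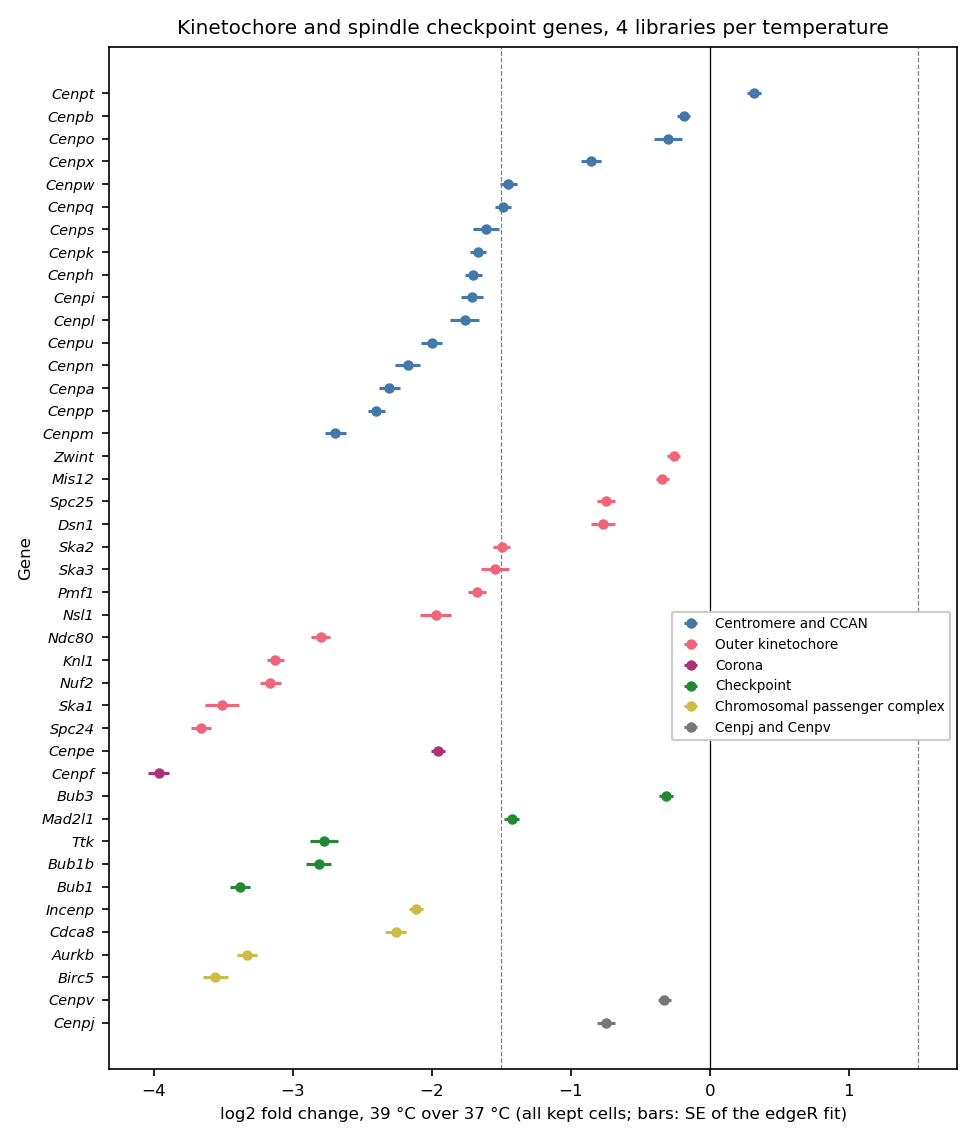
Log2 fold change at 39 °C relative to 37 °C in all kept cells (x axis) for each of the 42 genes (y axis), coloured by complex; points are edgeR estimates from 4 libraries per temperature, bars the SE, and dashed lines the size of 1.5 needed for a call. Points run from -3.96 for Cenpf to 0.32 for Cenpt, and Cenpt is the 1 point to the right of 0.

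At the centromere, 15 of the 16 CENP-A, CENP-B and CCAN genes fell and 10 were called, with a median change of -1.68. Cenpm, a CCAN subunit, was at 111, 124, 124 and 130.5 CPM in 37 °C replicates 1 to 4 and at 15.4, 18.9, 19.2 and 21.7 CPM in the 39 °C replicates. The groups lay far apart, with a log2 change of -2.69 (SE 0.07, edgeR adjusted p = 2.99e-16). Cenpp, a subunit of the same network next to Cenpo, was at 36.2, 38.4, 35.7 and 38.7 CPM at 37 °C and at 7.21, 6.55, 7.505 and 7.02 CPM at 39 °C. It fell by 2.40 (SE 0.06, adjusted p = 1.08e-16), with no overlap. Cenpa, the histone variant that marks the centromere, was at 108, 136, 133 and 132 CPM at 37 °C and at 25.6, 23.02, 25.3 and 29.1 CPM at 39 °C. Its 37 °C replicate 1 lay below the 3 others and still well above each 39 °C library, and the change was -2.30 (SE 0.07, adjusted p = 3.68e-15).

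The smallest changes of this group were those of Cenpb and Cenpo. Cenpb, which binds a short box in centromeric satellite DNA and is not part of the CCAN, ranged from 143 to 160.1 CPM at 37 °C and from 127 to 136 CPM at 39 °C. It fell by 0.19 (SE 0.05, adjusted p = 0.0019). Cenpo, the least counted CCAN gene, ranged from 5.16 to 6.05 CPM and from 3.93 to 5.05 CPM, and fell by 0.30 (SE 0.10, adjusted p = 0.013), and did not pass without 37 °C replicate 2 (edgeR adjusted p = 0.0501), without the 5% of cells with most UMIs and with sums thinned to the lowest total. Cenpt, the CCAN subunit that can bind the NDC80 complex directly, went the other way. It was at 45.5, 48.1, 51.1 and 51.6 CPM at 37 °C and at 62.6, 61.1, 58.8 and 62.0 CPM at 39 °C. Every 39 °C library was above every 37 °C library, a pattern seen in 28.7% of all genes, and the change was 0.32 (SE 0.05, adjusted p = 1.27e-05). Exons of Cenpb overlap those of Spef1 on the same strand, and those of Cenpt (Tsnaxip1), Cenpo (Adcy3, Ptrhd1) and Cenpp (Ippk, Aspn) overlap genes on the opposite strand; whether the counting used the strand is not given in the sources used here, so these 4 levels are uncertain.

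**Figure D2:**
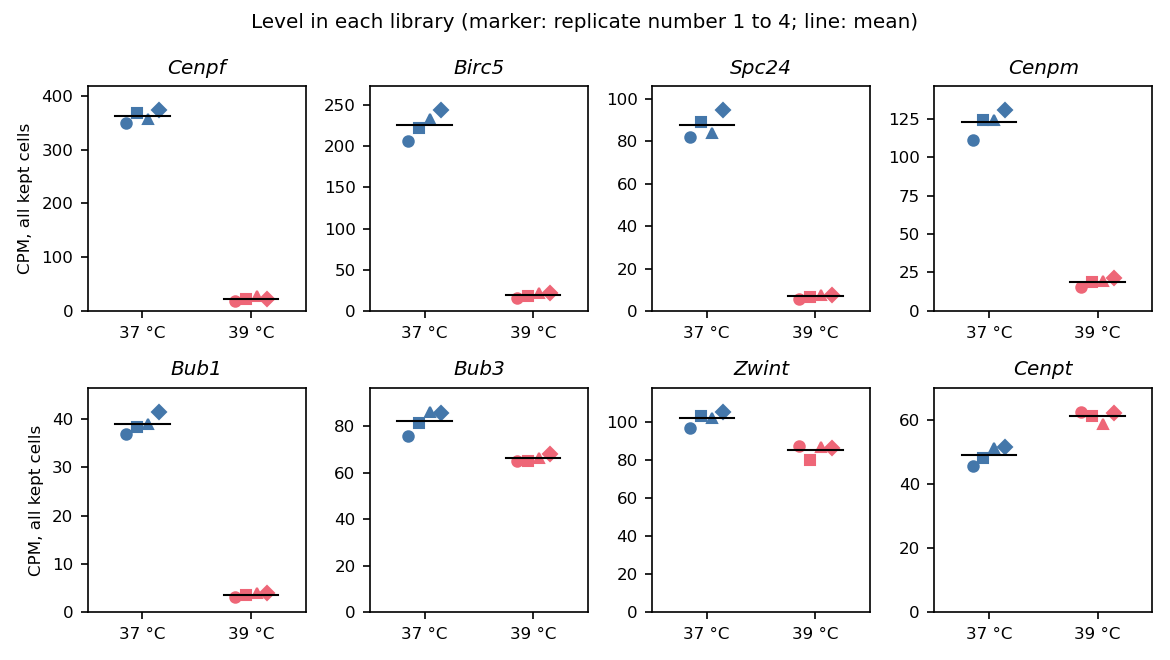
Level in CPM over all kept cells (y axes start at 0) of 8 genes in each library at 37 °C and 39 °C (x axis); each marker shape is 1 replicate number and lines are group means. Cenpf, Birc5, Spc24, Cenpm and Bub1 show wide gaps between the temperatures, Bub3 and Zwint narrow gaps, and Cenpt lies higher at 39 °C.

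In the outer kinetochore, all 13 genes of the KMN network and the Ska complex fell and 8 were called, with a median of -1.67. Spc24, which with Spc25 forms the end of the NDC80 complex that docks on the inner kinetochore, was at 82.2, 89.2, 84.0 and 94.8 CPM at 37 °C and at 5.73, 6.62, 7.68 and 7.32 CPM at 39 °C. It was 12.6-fold lower (log2 change -3.66, SE 0.07, adjusted p = 4.87e-18), and the 2 groups did not come near each other. Ska1, a microtubule-binding subunit of the Ska complex, was at 16.1, 19.6, 19.7 and 18.9 CPM and at 1.48, 1.14, 1.66 and 2.20 CPM, a change of -3.51 (SE 0.12, adjusted p = 9.95e-15). Nuf2, partner of Ndc80 at the microtubule-binding end, ranged from 38.9 to 43.9 CPM at 37 °C and from 4.199 to 5.32 CPM at 39 °C, and fell by 3.16 (SE 0.07, adjusted p = 5.00e-17). Ndc80 itself, named after its values were seen, ranged from 46.4 to 54.6 and from 6.44 to 7.65 CPM and fell by 2.80 (SE 0.07, adjusted p = 6.88e-17).

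Spc25, the partner of Spc24, had a smaller change. Its levels were 67.8, 79.0, 70.003 and 70.7 CPM at 37 °C and 49.4, 42.9, 39.5 and 40.2 CPM at 39 °C. The groups were separate, and the change was -0.75 (SE 0.06, adjusted p = 5.04e-09). Zwint, a Knl1-binding protein, and Mis12, which names the bridging complex, changed least in this group. Zwint ranged from 96.7 to 105.5 CPM at 37 °C and from 80.2 to 87.2 CPM at 39 °C, a change of -0.26 (SE 0.05, adjusted p = 6.56e-05). Mis12 ranged from 43.7 to 46.4 CPM and from 33.5 to 36.8 CPM, a change of -0.34 (SE 0.05, adjusted p = 3.26e-06); its exons overlap those of Derl2 on the opposite strand.

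All 5 checkpoint genes fell, and 3 were called. Bub1, a kinase that marks centromeric chromatin and recruits other checkpoint proteins, was at 36.8, 38.3, 38.8 and 41.5 CPM at 37 °C and at 3.18, 3.63, 4.04 and 3.93 CPM at 39 °C, a change of -3.38 (SE 0.07, adjusted p = 1.51e-17). Bub1b, which encodes BubR1 of the mitotic checkpoint complex, was at 40.1, 44.5, 49.9 and 52.7 CPM and at 7.49, 6.36, 6.76 and 6.21 CPM, a change of -2.81 (SE 0.09, adjusted p = 1.80e-15). Ttk, the kinase that starts the signal, was at 15.9, 17.5, 16.0 and 19.7 CPM and at 2.33, 2.35, 2.90 and 2.43 CPM, a change of -2.77 (SE 0.10, adjusted p = 1.51e-14). None of the 3 overlapped between the temperatures. Mad2l1, the Mad2 protein that binds Cdc20, ranged from 33.5 to 36.8 CPM and from 12.1 to 13.9 CPM and changed by -1.43 (SE 0.06, adjusted p = 6.09e-14), just short of the size needed for a call. Bub3, the adaptor that Bub1 and Bub1b share, was at 75.7, 81.5, 86.3 and 85.5 CPM at 37 °C and at 64.9, 65.0, 66.5 and 68.2 CPM at 39 °C. The groups were separate by a small margin, with a change of -0.31 (SE 0.05, adjusted p = 1.35e-05).

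All 4 genes of the chromosomal passenger complex were called lower. Birc5, or survivin, which brings the complex to the centromere, was at 206, 222, 233 and 244 CPM at 37 °C and at 15.1, 17.5, 21.7 and 21.9 CPM at 39 °C, a change of -3.56 (SE 0.09, adjusted p = 8.07e-17). Aurkb, the kinase of the complex, was at 39.1, 43.9, 45.2 and 44.6 CPM and at 4.26, 4.202, 4.78 and 3.89 CPM, a change of -3.33 (SE 0.07, adjusted p = 2.26e-17). Cdca8, or borealin, ranged from 59.1 to 71.0 and from 10.7 to 14.3 CPM (-2.26, SE 0.08, adjusted p = 5.48e-15), and its exons overlap a gene on the opposite strand. Incenp, the scaffold that activates the kinase, ranged from 85.5 to 97.6 and from 20.6 to 21.9 CPM (-2.11, SE 0.05, adjusted p = 8.07e-17). The estimates of Incenp and Cdca8 were smaller than those of Birc5 and Aurkb, a difference that was not tested.

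Both corona genes were called lower. Cenpf, a large coiled-coil protein, was at 350.3, 368, 357 and 373 CPM at 37 °C and at 19.3, 22.5, 27.9 and 22.4 CPM at 39 °C. It was 15.6-fold lower (log2 change -3.96, SE 0.08, adjusted p = 4.87e-18), the largest change among the 42 genes. Cenpe, a kinesin that carries chromosomes to the metaphase plate, was at 197, 196, 198 and 209 CPM and at 56.1, 49.7, 50.3 and 50.7 CPM, a change of -1.95 (SE 0.05, adjusted p = 1.26e-16). Cenpj and Cenpv match the symbol pattern but are outside these complexes, and Cenpj acts in centriole assembly. Cenpj ranged from 22.5 to 24.3 and from 12.3 to 14.97 CPM (-0.74, SE 0.06, adjusted p = 6.31e-09). Cenpv ranged from 88.6 to 98.9 and from 73.6 to 77.2 CPM (-0.33, SE 0.05, adjusted p = 4.51e-06). Neither was called.

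Genes that work beside these showed unequal changes. For comparison, 30.5% of all tested genes fell, 31.5% rose and 3.62% were called lower. Of 28 other centromere and kinetochore genes, 23 fell, 3 rose (Kansl1, Clasp2 and Ndel1, with 0.74, 0.40 and 0.27) and 13 were called lower, with a median of -1.14. The 3 largest falls were those of the mitotic kinase Plk1 (-3.90), the microtubule depolymerase Kif2c (-3.62) and the chromokinesin Kif22 (-2.88). Of 19 genes of the anaphase-promoting complex (APC/C) and its partners, 16 fell, 3 rose and 3 were called lower: the inhibitor Fbxo5 (-2.77), the ubiquitin carrier Ube2c (-2.21) and the coactivator Cdc20 (-1.78). The median of that list was -0.36. Of 15 cohesin genes and regulators, 9 fell, 3 rose and 3 did not pass, and the called genes were Esco2 (-3.43), Cdca5 (-2.98) and Espl1 (-2.55), which acetylate, stabilise and cut cohesin. Their list had a median of -0.65.

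These levels mix cells of different phases, so each cell was assigned to G1, S or G2M by Seurat's scoring, with the 10 of the 42 genes that stand in its G2M list taken out of it. At 37 °C, 24.8% ± 3.39, 40.9% ± 2.65 and 34.4% ± 1.14 (SD, n = 4) of cells were assigned to G1, S and G2M, and at 39 °C 84.1% ± 1.18, 11.3% ± 0.632 and 4.59% ± 0.875 (SD, n = 4), the last with only 34 to 193 cells per library. At 37 °C 6% and at 39 °C 5.21% of cells lay within 0.02 of a score limit. Levels between phases are a description, since phases were cut from the same cells. Of the 42 genes, 36 were highest in G2M in all 4 of the 37 °C libraries, 5 (Cenpb, Cenps, Zwint, Cenpv and Cenpx) were highest in S, and Cenpk differed between libraries. G2M cells gave 66.9 to 68.5% of the UMIs of the 42 genes at 37 °C and 13.1 to 18.6% at 39 °C.

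The phase contrast itself ranged widely between genes. At 37 °C the G2M level over the G1 level, library by library, was 33.9 to 57.4 for Aurkb, 22.5 to 27.4 for Cenpf, 15.4 to 18.9 for Birc5, 4.77 to 6.02 for Spc24, 1.63 to 1.85 for Bub3 and 1.05 to 1.18 for Cenpb. At 39 °C the same ratio was 112 to 143 for Cenpf, 60.8 to 104 for Birc5 27.0 to 46.3 for Spc24, 37.5 to 55.5 for Aurkb, 1.16 to 1.53 for Bub3 and 1.123 to 1.34 for Cenpb, while for Spc25 it went from 6.87 to 8.63 at 37 °C to 2.59 to 3.95 at 39 °C. The phase levels of each 39 °C library were weighted by the mean 37 °C shares of UMIs per phase, a step added after the data were seen. The median log2 ratio of the 42 genes, -1.70 as measured on unscaled CPM, became -0.47 at the 37 °C mix. As measured, 31 genes lay below -1, and at the 37 °C mix 2 did, Cenpf (-1.12) and Spc24 (-1.31). Phases were assigned by the levels of other S and G2M genes. Cells of a phase were thus chosen to be alike in such genes at both temperatures, and the weighted values depend on that choice. The weighting used phases scored over all libraries together and was not repeated with other scorings. Under that scoring the median changes within G1, S and G2M cells were -0.47, -0.55 and -0.53. With phases scored per library they were -1.17, -1.30 and -1.70, and on cells thinned to 2000 UMIs -0.66, -0.73 and -0.92.

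Within G1-assigned cells, 8 of the 42 genes were called lower, against 1.53% of the 14721 genes tested, and 0 were called higher by edgeR or DESeq2, while 6 were higher at an unadjusted edgeR p under 0.05. In all, 23 fell (22.5% of all genes) and 4 rose (25.3% of all genes), with a median of -0.47 against 0.04 for all genes. The groups did not overlap in 21 genes lower at 39 °C, against 20.3% of all genes, and in 5 higher, against 24.2%. The 8 called genes were Spc24 (-3.72), Cenpf (-3.36), Birc5 (-2.94), Ska1 (-2.45), Nuf2 (-2.03), Cenpm (-1.98), Bub1 (-1.79) and Cenpp (-1.65), at edgeR adjusted p-values from 1.90e-17 to 2.04e-05. Cenpf was at 34.5, 33.6, 37.2 and 38.3 CPM in the G1 cells of 37 °C replicates 1 to 4 and at 3.37, 3.42, 3.92 and 3.15 CPM at 39 °C. Birc5 was at 25.997, 25.9, 33.2 and 29.6 CPM and at 3.03, 3.56, 3.79 and 4.33 CPM. Both were thus separate between the temperatures in G1 cells as well. In G2M cells at 37 °C their mean levels were 890 and 493.5 CPM (plain totals), far above those in G1 cells. G2M cells made up 34.4% of cells at 37 °C and 4.59% at 39 °C. The part of wrongly assigned cells or free RNA in these G1 levels was not tested. Ska1 rested on 37 and 22 UMIs per temperature in these cells.

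The 2 partners of 1 end of the NDC80 complex moved in opposite directions in G1 cells. Spc24 was at 23.1, 26.3, 24.0 and 29.8 CPM at 37 °C and at 1.69, 1.67, 2.15 and 2.17 CPM at 39 °C (-3.72, SE 0.12, edgeR adjusted p = 4.79e-16). Spc25 was at 19.0, 17.8, 18.2 and 15.6 CPM and at 44.7, 39.7, 35.3 and 35.7 CPM, a rise of 1.125 (SE 0.09, edgeR adjusted p = 6.63e-10). The groups did not overlap for either gene. The UMIs of Spc25 per UMI of Spc24 in G1 cells were 0.822, 0.676, 0.757 and 0.524 at 37 °C and 26.5, 23.8, 16.45 and 16.5 at 39 °C, over 144 to 174 and 25 to 51 UMIs of Spc24 per library; the ratio was chosen after the values were seen. In G2M cells this ratio was 0.938, 1.10, 1.02 and 0.875 at 37 °C and 2.26, 1.72, 1.40 and 1.91 at 39 °C, so that it was higher at 39 °C in every library of both phases. Ndc80 fell by 0.46 in G1 cells (SE 0.18, edgeR adjusted p = 0.041), from 3.08 to 4.17 CPM to 2.40 to 3.07 CPM, and did not pass without 6 of the 8 libraries in turn.

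**Figure D3:**
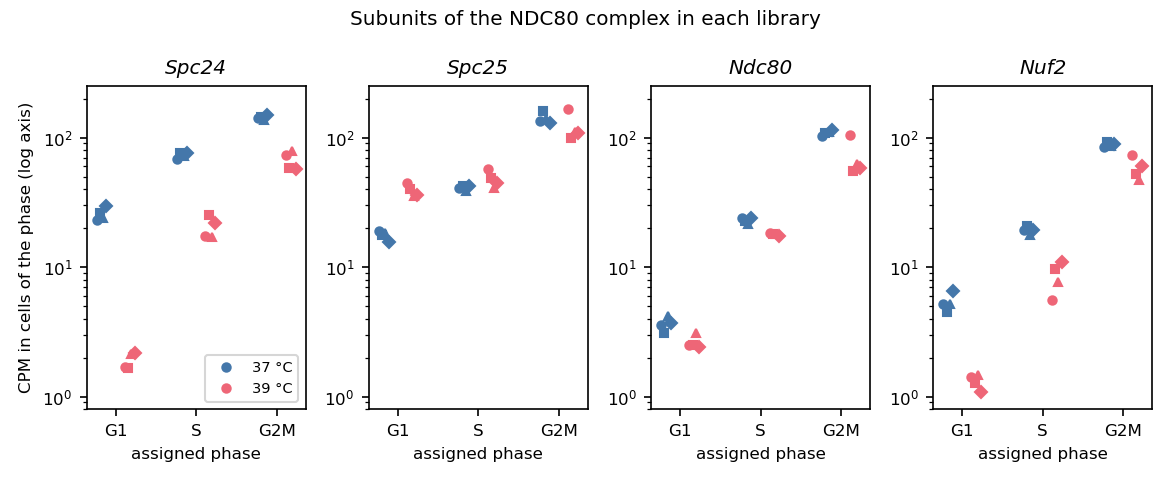
Level in CPM (log axis) of the 4 subunit genes of the NDC80 complex in cells assigned to G1, S and G2M (x axis), 1 marker per library, with 37 °C in blue and 39 °C in red. Spc24 and Nuf2 are lower at 39 °C in each phase, while Spc25 in G1 cells lies at 15.6 to 19.0 CPM at 37 °C and at 35.3 to 44.7 CPM at 39 °C.

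The 3 other genes that rose in G1 cells were Cenpt, Incenp and Cenpe. Cenpt was at 33.8, 34.8, 40.2 and 42.2 CPM and at 59.5, 57.8, 57.4 and 60.6 CPM, a change of 0.64 (SE 0.07, edgeR adjusted p = 3.02e-08). Incenp was at 12.5, 11.1, 9.83 and 9.58 CPM and at 14.6, 14.95, 14.4 and 14.4 CPM, a change of 0.43 (SE 0.10, edgeR adjusted p = 7.62e-04). Cenpe was at 32.9, 26.8, 28.3 and 32.3 CPM and at 43.6, 35.5, 35.4 and 40.1 CPM, a change of 0.35 (SE 0.08, edgeR adjusted p = 0.0012). None of the 3 overlapped between the temperatures. With phases scored in each library by itself, Incenp changed by -0.11 and Cenpe by -0.46 in G1 cells, both in the other direction, and 18 of the 42 genes were called lower, as were 362 of 14613 tested genes. Cdca8 (-0.72) and Mad2l1 (-0.68) fell under that scoring. That scoring put 54.8% ± 3.15 (SD, n = 4) of 39 °C cells in G1. On cells thinned to 2000 UMIs, Incenp stood at 0.10 (edgeR adjusted p = 0.31) and Cenpe at -0.022 (edgeR adjusted p = 0.84), and neither passed. Cenpl, a CCAN subunit next to Cenpn, differed by 0.65 (SE 0.29, edgeR adjusted p = 0.070) on 42 UMIs at 37 °C, and this did not pass, although the groups did not overlap. It passed as a rise in 7 alternatives, among them the replicate block (0.72, edgeR adjusted p = 0.027). Aurkb, called in all cells, overlapped between the temperatures in G1 cells (1.63 to 2.66 and 1.04 to 1.69 CPM), with a change of -0.95 (SE 0.26, edgeR adjusted p = 0.0037).

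In S-assigned cells, 30 genes fell (23.3% of all 13757 genes tested) and 2 rose (20.5%), and Spc24 (-1.82, SE 0.10, edgeR adjusted p = 1.19e-15) and Aurkb (-1.60, SE 0.16, edgeR adjusted p = 9.02e-10) were the 2 called, where 0.981% of all genes were called lower. Without 39 °C replicate 4 there was 1 call, and with phases scored per library there were 15, where 348 of 13942 genes were called lower. The 2 that rose were Cenpt (0.71, SE 0.08, edgeR adjusted p = 5.70e-09) and Cenpe (0.45, SE 0.10, edgeR adjusted p = 4.60e-04). Cenpe stood at -0.12 with phases scored per library and at 0.18 on cells thinned to 2000 UMIs, and passed in neither. Spc25 differed by 0.20 (SE 0.09, edgeR adjusted p = 0.054) and overlapped; it passed as a rise in 7 alternatives, the 3 other scalings and the replicate block included, and as a fall of -0.40 with phases scored per library.

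In G2M-assigned cells, 31 genes fell, against 17.0% of the 13782 genes tested, and Cenpt rose, against 14.1%. With sums thinned to the lowest total 18 fell, as did 1006 of 11015 tested genes. Neither edgeR nor DESeq2 called any (0 genes, where 0.856% of all genes were called lower), while 32 were lower at an unadjusted p under 0.05. The median change was -0.53, against -0.03 for all genes. Bub1b had the largest fall, from 92.9, 105, 117 and 116 CPM to 64.5, 33.0, 49.3 and 45.7 CPM (-1.22, SE 0.12, edgeR adjusted p = 4.02e-11). Cenpf was at 897, 957, 924 and 899 CPM and at 453, 391, 428 and 347 CPM, and changed by -1.19 (SE 0.08, edgeR adjusted p = 2.47e-15). Cdca8 fell by 1.07 (SE 0.10, edgeR adjusted p = 5.12e-12), from 134 to 153 CPM to 57.5 to 77.9 CPM. These 3 genes did not overlap between the temperatures, and in all 26 of the 42 genes were lower in each 39 °C library than in each 37 °C library, against 20.4% of all genes. Cenpt was at 61.2, 68.3, 67.6 and 66.9 CPM and at 136, 105, 88.6 and 92.2 CPM (0.61, SE 0.10, edgeR adjusted p = 2.17e-06), and so was higher at 39 °C in each of the 3 phases. With phases scored per library 24 genes were called lower, as were 434 of 13923 tested genes, and with phases scored on cells thinned to 2000 UMIs 7 were, as were 164 of 13755.

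**Figure D4:**
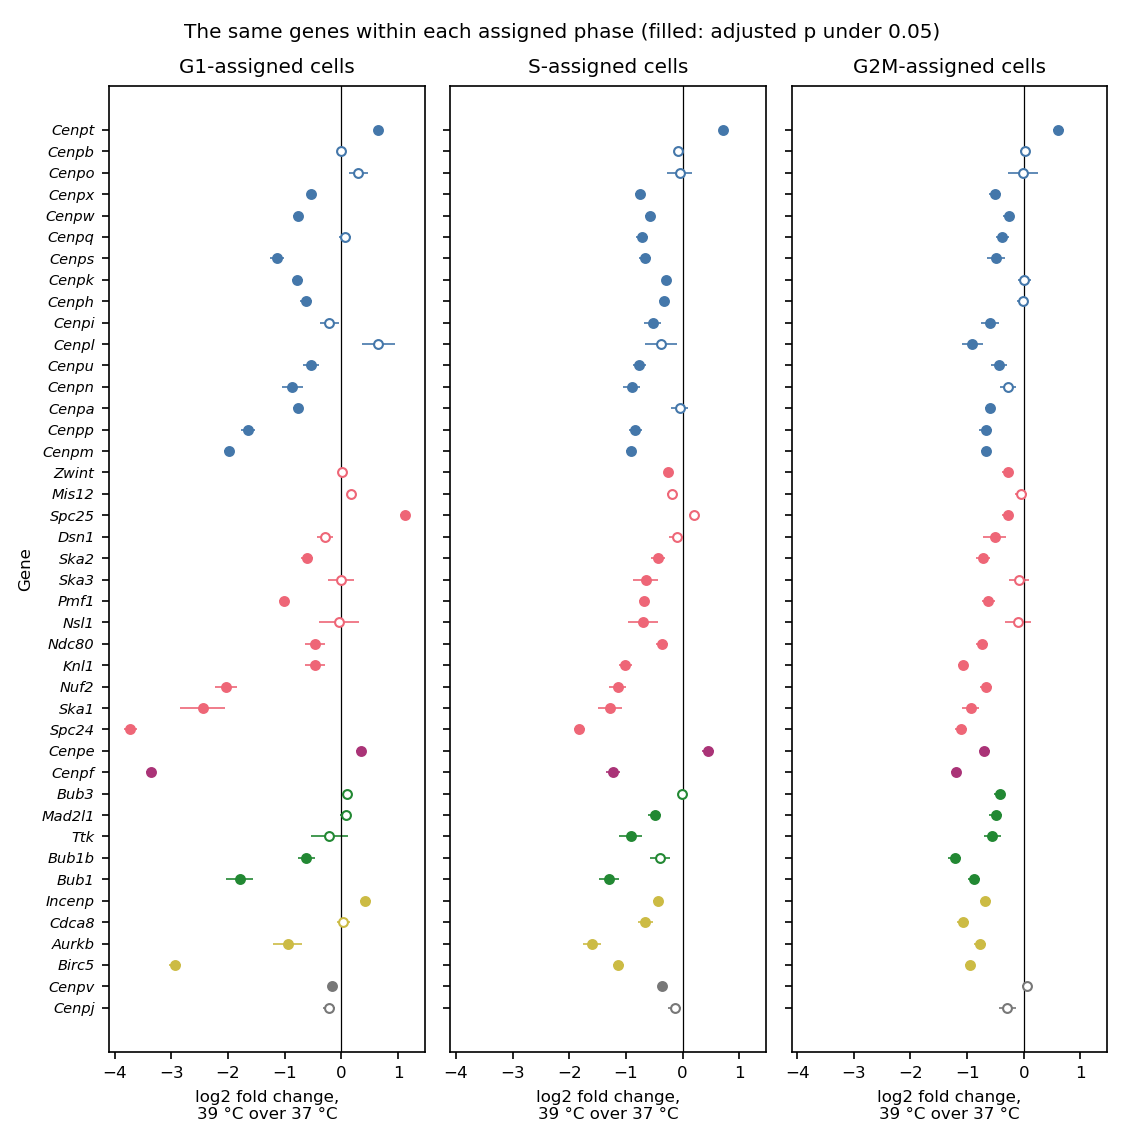
Log2 fold change at 39 °C relative to 37 °C within G1-, S- and G2M-assigned cells (x axes) for each of the 42 genes (y axis), with edgeR estimates from 4 libraries per temperature and SE bars; filled points passed an adjusted p under 0.05 and colours mark the complexes as in the plot over all cells. G1 changes span -3.72 to 1.125, and G2M changes -1.22 to 0.61.

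Whether a gene's temperature effect differed between phases was tested on all 24 sums of a library and phase, as the log2 change in G2M minus that in G1, with library and phase as terms. The effect in G2M lay above that in G1, which here means a smaller fall, for 13 genes (3.15% of all 14172 genes tested) and below it for 8 (4.09%), and 21 did not pass. The 3 largest positive differences were those of Spc24 (2.63, SE 0.16, edgeR adjusted p = 1.10e-24), Cenpf (2.19, SE 0.12, edgeR adjusted p = 2.17e-28) and Birc5 (2.00, SE 0.13, edgeR adjusted p = 1.99e-23). The 3 largest negative ones were those of Cenpl (-1.48, SE 0.31, edgeR adjusted p = 4.10e-04), Spc25 (-1.35, SE 0.10, edgeR adjusted p = 3.87e-19) and Cdca8 (-1.09, SE 0.14, edgeR adjusted p = 1.71e-09). The first group fell more in G1 cells, while Spc25 rose in G1 and Cdca8 differed there by 0.04 (edgeR adjusted p = 0.83). Cenpl rested on 42 UMIs in G1 cells at 37 °C and 58 in G2M cells at 39 °C, and its G1 difference did not pass. With phases scored per library, 8 genes lay above, as did 1315 of 14172 tested genes, and 17 below, as did 1053.

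The promoter match described above can be set beside these changes. The 13 genes with a CHR match beginning within 50 bases of the start had a median change of -2.30 in all cells (-3.96 to -0.31, 10 called lower), and the 24 others with a window a median of -1.55 (-3.56 to 0.32, 12 called lower). Of all tested genes, 3.62% were called lower. The limit of 50 bases was chosen after the positions were seen, and the difference between the 2 groups was not tested. Spc25 and Bub3, whose sites are printed above, show that small changes also occurred among genes with the match. Windows of Spc24, Ska1, Aurkb, Incenp and Nsl1 were not analysed here. Each of these genes was called lower in all cells, with changes of -3.66, -3.51, -3.33, -2.11 and -1.97, and stands in neither group.

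**Figure D5:**
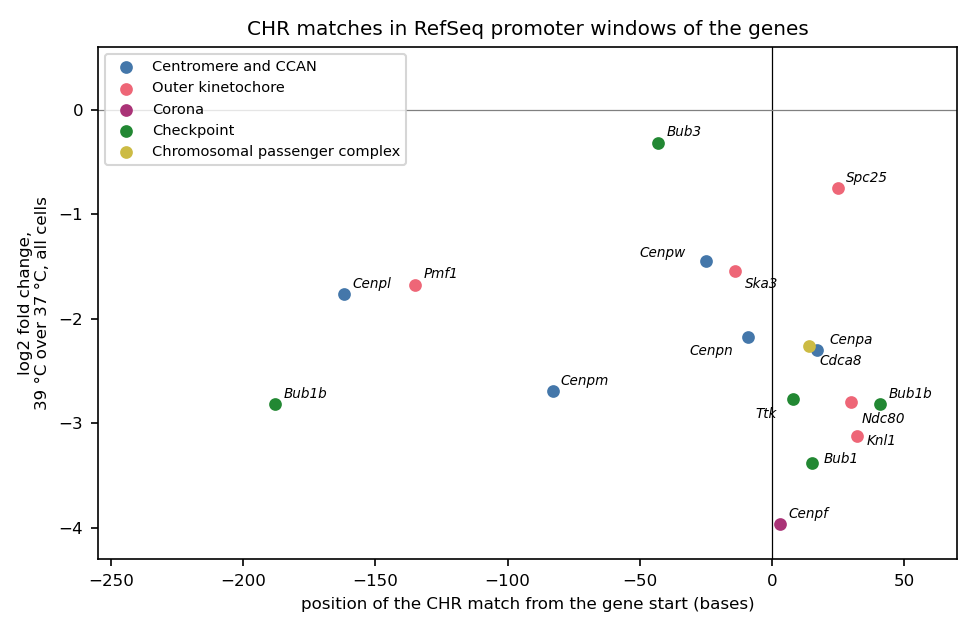
Position of each CHR match from the gene start in bases (x axis, negative before the start) and the gene's log2 fold change in all cells (y axis), 1 point per match and colours by complex. Most matches lie within 50 bases of the start, and their changes run from -0.31 for Bub3 to -3.96 for Cenpf.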

How the data were processed

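The authors aligned reads of Chromium Single Cell 3′ V3 libraries to mm10 with Cell Ranger 3.0.1, per the labels and their methods, and deposited raw UMI counts per gene and cell. Cells with 200 to 6000 genes and at most 15% mitochondrial UMIs were kept, as in the study (334, 440 and 29 cells failed the mitochondrial, upper and lower limits). No doublet caller was run. At most 5 barcodes were shared between libraries, and chi-square per degree of freedom between replicates was 2.85 to 21.4, so none was a copy. Phases were scored with Seurat 5.3.0 (42 S and 42 G2M genes). Counts were summed per library and tested in edgeR 4.0.16 (TMM, glmQLFTest, temperature only, Benjamini-Hochberg over all tested genes; SE from the F statistic), after a check on simulated data. CPM use TMM-scaled totals of tested genes, while marker levels, phase ratios and the phase-mix step use plain totals. Overlaps come from GENCODE M21. The 42 genes and all lists were chosen with earlier results of these data known. Named genes were, per complex, the 3 largest and 2 smallest changes (all in complexes of up to 5 genes), all that rose in any test, and the 3 largest phase differences each way; of other lists, the 3 largest changes, and Kansl1, Clasp2 and Ndel1 after their values were seen. The study writes of 4 replicates cultured at each temperature. Whether they were independent cultures, passages or days is not given, so p-values may measure technical spread. Alternatives included DESeq2 1.42.0, other scalings, filters and phase scorings, and each library left out. The sequence of 1 promoter site is not reported here.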

Additional observations from a re-analysis of the deposited data

Results flagged for a closer look

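Among 108 checks of 4 libraries each (27 genes, 2 temperatures, all cells and G1 cells), 6 had 1 library far from the 3 others by Dixon's ratio, where chance gives about 1 in 20. In all cells these were Cenpe in 39 °C replicate 1 (56.1 CPM, others 49.7 to 50.7), Cdca8 in 39 °C replicate 1 (10.7 CPM, others 13.7 to 14.3), Cenpa in 37 °C replicate 1 (108 CPM, others 132 to 136) and Zwint in 39 °C replicate 2 (80.2 CPM, others 86.2 to 87.2). In G1 cells they were Bub1b in 39 °C replicate 1 (4.86 CPM, others 3.65 to 3.79) and Aurkb in 37 °C replicate 2 (1.63 CPM, others 2.50 to 2.66).

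The temperature effect differed between G2M and G1 cells (edgeR interaction, adjusted p under 0.05) for 15 of the named genes. The log2 change in G2M minus that in G1 was 2.63 for Spc24, 2.19 for Cenpf, 2.00 for Birc5, 1.51 for Ska1, 1.40 for Nuf2, 1.33 for Cenpm, 1.01 for Cenpp and 0.94 for Bub1. It was -1.48 for Cenpl, -1.35 for Spc25, -1.09 for Cdca8, -1.08 for Incenp, -1.03 for Cenpe, -0.55 for Mad2l1 and -0.49 for Bub3. The difference did not pass for Bub1 without 37 °C replicate 4, without 39 °C replicate 4 or with phases scored per library, for Cenpp with phases scored per library (0.17), for Mad2l1 without 39 °C replicate 3 (-0.44) or for Ska1 without 37 °C replicate 3 (1.33). The part of the phase scoring in these differences was not tested beyond the alternatives given under the processing.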

How the results depend on the processing

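In all cells every alternative gave 26 to 29 genes called lower, 40 or 41 that fell and 1 that rose. The phase results moved mainly with the scoring. With phases scored per library, 18, 15 and 24 genes were called lower in G1, S and G2M cells, 2 and 1 rose in G1 and S, and the effect in G2M lay above that in G1 for 8 and below it for 17. With phases scored on cells thinned to 2000 UMIs, 7 were called lower in G2M, and 2 and 1 rose in G1 and S. With sums thinned to the lowest total, 1 was called lower in S, as were 93 of 12277 tested genes. In G2M 18 then fell, as did 1006 of 11015. The share of the UMIs of the 42 genes that came from G2M cells at 37 °C was 67.4% on average. It was 68.5% with the 42 genes left in the phase lists and 65.0% on thinned cells. In G1 cells Cenpe changed by -0.46 (per-library scoring) and -0.022 (thinned), and Incenp by -0.11 (per-library) and 0.10 (thinned, not passed). In S cells Cenpe changed by -0.12 (per-library). Genes that had not passed did so in the other direction: in G1, Cdca8 at -0.72 and -0.40 and Mad2l1 at -0.68 and -0.34 (per-library and thinned); per-library, Spc25 in S at -0.40, Cenpv in G2M at -0.23 and the phase difference of Cenpa at -0.50. The cause was not tested. In 84 other values the sign changed where neither estimate passed. At the 37 °C phase mix Cenpb, Cenpo, Mis12 and Spc25 stood at 0.032, 0.0998, 0.012 and 0.0895.

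Leaving out 1 library in turn gave 26 to 29 called lower and 40 to 41 that fell in all cells, 8 called lower, 21 to 23 that fell and 4 to 6 that rose in G1, 1 to 3, 28 to 30 and 2 to 3 in S, 0, 26 to 31 and 1 in G2M, and 11 to 13 above and 6 to 11 below between phases. The 1 in S is without 39 °C replicate 4 and the 3 without 39 °C replicate 2. Replicate numbers were not taken to pair the libraries: correlations of same-numbered libraries were -0.17, -0.12 and -0.20 for numbers 1 to 3 and 0.45 for number 4 over 3258 genes, and pair 4 alone correlated best with its own number, in all cells and in each phase. With the replicate block, 28, 8, 2 and 0 genes were called lower in all, G1, S and G2M cells, 41, 23, 31 and 29 fell, and 1, 5, 3 and 1 rose. G2M results at 39 °C rest on 476 cells, and free RNA in droplets was not estimated.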
